A study of Mus musculus with 26 samples.

Results

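The genes described here are 35 genes of skeletal muscle, out of 52454 gene symbols in the deposited expression matrix, followed over 10 RNA-seq libraries from mouse fibroblasts, hearts and livers. They were found in the matrix by symbol, and all 35 had a value in every library. The members were selected on levels measured in these same libraries, above all on the difference between both liver libraries, so that difference is a description and carries no test. The study asked what the de novo DNA methyltransferases DNMT3A and DNMT3B do in somatic cells, and it also covered DNA methylation, which is not analysed here.

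There was 1 RNA-seq library per condition, so no difference could be set against a spread between replicates and p-values are not given. The 2i-MEFs were female F1 fibroblasts (129X1/SvJ and MSM/Ms) taken at E14.5 from chimaeric embryos made with embryonic stem cells that had been kept in 2i/L medium, with Dnmt3a or Dnmt3b knocked out by CRISPR in clonal stem cell lines. The host's own fibroblasts were removed from these cultures by drug selection followed by sorting, and no wild-type (WT) 2i-MEF RNA library is analysed here. The other mouse embryonic fibroblasts (MEFs), hearts and livers came from male C57BL6 embryos at E14.5 that were WT or carried the Dnmt3a tm1Enl allele, bred from heterozygous parents. MEFs of both genotypes received DMSO, the solvent, or GSK126, an inhibitor of the histone methyltransferase EZH2. Within each genotype the titles of the heart and liver libraries share a number, without saying what it counts.

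In skeletal muscle, the transcription factors MYOD1, MYF5, MYF6 and myogenin (MYOG) bind E-boxes and switch on the genes of the contractile apparatus. In the sarcomere, myosin of the thick filament pulls on actin of the thin filament, troponin makes this depend on calcium, and the calcium is released through RYR1 and pumped back by ATP2A1. Heart muscle is built from some of the same genes, such as Des, Ttn, Actn2 and Tnnc1, but lacks the myogenic factors, and liver is not a muscle tissue, though the diaphragm lies against it.

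Values are FPKM, that is, read fragments adjusted for transcript length and for the depth of the library, a scale on which levels of different genes can be set side by side. A ratio is the log2 ratio of FPKM + 1, which understates the change of low genes, and a gene is counted as higher or lower where FPKM + 1 differed by at least 2-fold. The depth, recovered from the steps between low values, was 9192108 to 26194389 mapped reads per library. Dnmt3a itself was 4.21 FPKM in Dnmt3a KO and 23.9 in Dnmt3b KO 2i-MEFs. It stood at 26.1 (DMSO) and 19.3 (GSK126) in WT MEFs against 85.7 and 84.5 in those labelled Dnmt3a KO, at 55.0 in WT and 125 in labelled-KO heart, and at 53.5 in WT liver against 12.7 in the liver labelled KO. In MEFs and heart the level thus went against the label, although a value over the whole gene also counts reads outside the deleted part. These libraries are called labelled Dnmt3a KO throughout. Of the defining markers, the livers held hepatocyte Alb at 7396 and 4323 FPKM, the hearts held Myh6 at 1250 and 931, and the fibroblast cultures held Col3a1 at 1193 to 8810.

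The members fell into a few patterns over tissues. The 35 together summed to 10426 and 9733 FPKM in WT and labelled-KO heart, to 457 in WT liver and 178 in the liver labelled Dnmt3a KO, and to between 53.8 and 99.5 in the 6 fibroblast libraries. In both hearts 18 members were higher than in any other library, 12 were highest in WT liver, and 5 followed neither pattern. The 12 highest in WT liver were the 4 myogenic factors, the 3 acetylcholine receptor subunits, Myh3, Myh8, Mylpf, Tnnc2 and Atp2a1. The 5 others were Myh2, Tnnt3, Neb, Actn3 and Ryr1. At least 1 FPKM was reached by 20 and 24 members in WT and labelled-KO heart, by 21 and 9 in WT and labelled-KO liver, and by 8 to 11 in the fibroblasts.

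**Figure D1:**
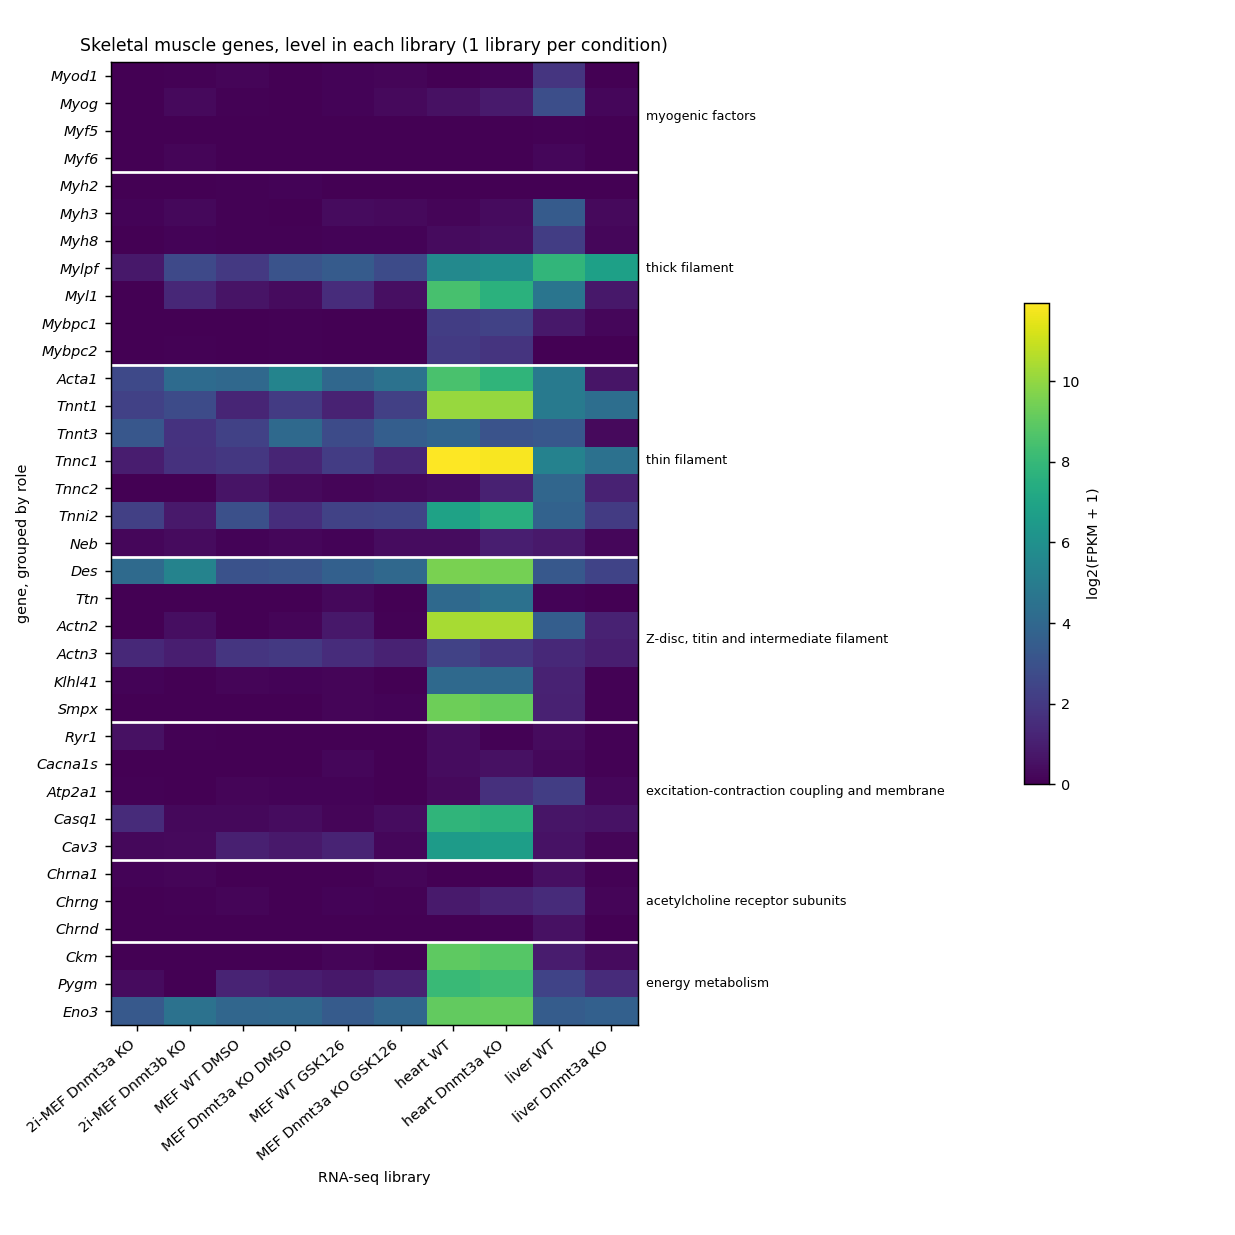
Level of each of the 35 genes, as log2(FPKM + 1) by colour, in the 10 libraries on the horizontal axis as labelled, with genes on the vertical axis grouped by role and 1 library per condition. The heart columns are brightest, with Tnnc1 at 3958 FPKM in WT heart, and of the myogenic factors only Myog (6.31 FPKM) and Myod1 (2.55) passed 1 FPKM, in WT liver.

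Among the myogenic factors, Myog, which drives myoblasts to differentiate, was 6.31 FPKM in WT liver and 0.15 in the liver labelled Dnmt3a KO. Elsewhere Myog stood at 0.448 in WT and 0.801 in labelled-KO heart, at 0.043 and 0.0798 in WT MEFs with DMSO and GSK126, at 0.0301 and 0.219 in the labelled-KO MEFs, and at 0 and 0.253 in Dnmt3a KO and Dnmt3b KO 2i-MEFs. WT liver was thus above all 9 other libraries. Myod1, which commits cells to the muscle lineage, was 2.55 FPKM in WT liver and listed at 0 in the liver labelled KO. Myod1 was 0.0318 and 0.0781 in WT and labelled-KO heart, 0.134 and 0.0933 in WT MEFs, 0 and 0.114 in labelled-KO MEFs with DMSO and GSK126, and 0 and 0.0657 in Dnmt3a KO and Dnmt3b KO 2i-MEFs. Myf5 and Myf6, neighbours on chromosome 10 with a gap of 6.7 kb, were close to the limit of detection. Myf5 was 0.0405 FPKM in WT liver and 0 in all other libraries, and Myf6 was 0.144 in WT liver, 0.103 in Dnmt3b KO 2i-MEFs and 0 in the other 8.

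The thick filament gave the highest value of any member in liver. Mylpf, the regulatory light chain of fast myosin, was 231 FPKM in WT liver and 110 in the liver labelled Dnmt3a KO. It was 48.2 and 59.2 in WT and labelled-KO heart, 2.96 and 9.67 in WT MEFs with DMSO and GSK126, 7.23 and 5.69 in labelled-KO MEFs, and 0.72 and 5.22 in Dnmt3a KO and Dnmt3b KO 2i-MEFs. Mylpf was the only member above 100 FPKM in either liver, but the shortest of its 6 annotated transcripts, at 165 bases, is shorter than the fitted fragment, and FPKM of such a transcript rests on few reads. Depending on which transcript the value came from, it stands for 6 to 3432 reads in WT liver and 3 to 1591 in the liver labelled KO. Myl1, an alkali light chain of fast muscle myosin, was 358 and 196 FPKM in WT and labelled-KO heart, against 24.1 in WT liver and 0.71 in the liver labelled KO. In fibroblasts Myl1 was 0.554 and 1.89 in WT MEFs with DMSO and GSK126, 0.259 and 0.385 in labelled-KO MEFs, and 0 and 1.49 in Dnmt3a KO and Dnmt3b KO 2i-MEFs. Myh3, the embryonic myosin heavy chain, was 9.96 FPKM in WT liver and 0.248 in the liver labelled KO. It was 0.127 and 0.28 in the hearts, 0.0576 and 0.276 in WT MEFs, 0.0067 and 0.245 in labelled-KO MEFs, and 0.0947 and 0.188 in the 2i-MEFs. All 9 other libraries were thus under 1 FPKM for Myh3. The perinatal heavy chain Myh8 reached 3.54 FPKM in WT liver and at most 0.359 elsewhere, and the adult fast heavy chain Myh2 stayed at or under 0.0909 in every library. The myosin binding proteins Mybpc1 and Mybpc2 were highest in hearts, at 4.15 and 3.03 FPKM.

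Of the thin filament genes, Tnnc1, the slow and cardiac troponin C, was the highest member in heart, at 3958 FPKM in WT and 3696 in labelled KO. In liver Tnnc1 was 38.4 in WT and 20.7 in labelled KO, and in fibroblasts 2.89 and 3.38 in WT MEFs, 1.35 and 1.46 in labelled-KO MEFs, and 0.953 and 2.31 in Dnmt3a KO and Dnmt3b KO 2i-MEFs. Tnnt1, slow troponin T, had the same order of tissues. It was 1117 and 1075 FPKM in the hearts, 29.3 and 19.1 in the livers, 1.34 and 1.24 in WT MEFs, 3.25 and 3.85 in labelled-KO MEFs, and 3.89 and 5.69 in the 2i-MEFs. Acta1, skeletal alpha-actin, was also present in fibroblasts. It was 370 FPKM in WT heart and 223 in labelled KO, 28.4 in WT liver and 0.624 in labelled KO, 15.5 and 14.7 in WT MEFs with DMSO and GSK126, 40.5 and 21.7 in labelled-KO MEFs, and 5.31 and 17.0 in Dnmt3a KO and Dnmt3b KO 2i-MEFs. The liver labelled KO was the lowest of the 10 libraries for Acta1.

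The fast troponins Tnnt3 and Tnni2 lie on chromosome 7 with a gap of 54.4 kb. Tnnt3, fast troponin T, was 13.2 and 7.21 FPKM in WT and labelled-KO heart, 8.52 and 0.225 in WT and labelled-KO liver, 3.996 and 5.59 in WT MEFs, 16.2 and 11.1 in labelled-KO MEFs, and 8.42 and 2.41 in Dnmt3a KO and Dnmt3b KO 2i-MEFs. Its highest library was thus a fibroblast culture. Tnni2, fast troponin I, was 119 and 186 in the hearts, 12.3 and 3.18 in the livers, 6.65 and 4.06 in WT MEFs, 1.93 and 4.54 in labelled-KO MEFs, and 3.79 and 0.753 in the 2i-MEFs. Tnnc2, fast troponin C, was 14.3 FPKM in WT liver and 1.18 in labelled KO, and ranged from 0 to 1.17 in the other libraries. Exons of Tnnc2 overlap those of Ube2c on the opposite strand, and the strand setting of the counting was not given in the sources used here, so reads of both genes may be mixed. The same limit holds for all 12 members whose exons overlap a gene on the opposite strand, which are also Myh2, Mybpc1, Mybpc2, Neb, Des, Ttn, Ryr1, Cacna1s, Atp2a1, Casq1 and Ckm. Neb, which encodes the thin filament ruler nebulin, ranged from 0.0892 to 1.03.

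Genes of the Z-disc, titin and the intermediate filaments were mostly heart genes in these libraries. Actn2, the Z-disc actinin, was 1358 and 1366 FPKM in WT and labelled-KO heart, 10.8 and 1.21 in WT and labelled-KO liver, 0.0204 and 0.688 in WT MEFs, 0.137 and 0.0407 in labelled-KO MEFs, and 0 and 0.364 in the 2i-MEFs. Des, the muscle intermediate filament protein desmin, was 747 and 702 in the hearts, 8.91 and 4.22 in the livers, 7.10 and 11.9 in WT MEFs, 7.97 and 15.3 in labelled-KO MEFs, and 16.7 and 39.2 in Dnmt3a KO and Dnmt3b KO 2i-MEFs. For Des, every fibroblast library but WT and labelled-KO MEFs with DMSO was above WT liver. Smpx, a small protein of the costamere, went from 640 FPKM in WT heart to 1.11 in WT liver and 0.0557 in the liver labelled KO. Klhl41 was highest at 16.1 and Ttn at 20.8, both in heart, and Actn3, the fast-fibre actinin, ranged only from 0.977 to 4.11 over all libraries.

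The calcium and membrane genes divided by tissue as well. Casq1, the calcium buffer calsequestrin 1, was 223 and 196 FPKM in the hearts, 0.579 and 0.478 in the livers, 0.212 and 0.131 in WT MEFs, 0.308 and 0.324 in labelled-KO MEFs, and 1.74 and 0.199 in Dnmt3a KO and Dnmt3b KO 2i-MEFs. Cav3, muscle caveolin, was 93.5 and 104 in the hearts, 0.519 and 0.122 in the livers, 1.05 and 1.30 in WT MEFs, 0.735 and 0.148 in labelled-KO MEFs, and 0.191 and 0.228 in the 2i-MEFs. Both were thus far higher in heart than anywhere else. Atp2a1, the calcium pump of fast muscle, was highest in WT liver at 3.51 FPKM against 0.162 in the liver labelled KO. In heart Atp2a1 was 0.219 in WT and 2.15 in labelled KO, and in fibroblasts 0.133 and 0.0946 in WT MEFs, 0.0813 and 0 in labelled-KO MEFs, and 0.0558 and 0 in the 2i-MEFs. Ryr1 and Cacna1s, the release channel and its voltage sensor, stayed at or under 0.442 FPKM in every library.

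The acetylcholine receptor subunits receive the motor nerve's signal. Chrng, the gamma subunit of the embryonic receptor, was 1.81 FPKM in WT liver and 0.105 in the liver labelled Dnmt3a KO, 0.832 and 1.28 in the hearts, 0.105 and 0.0978 in WT MEFs, 0.0151 and 0.055 in labelled-KO MEFs, and 0 and 0.0423 in the 2i-MEFs. Chrnd, the delta subunit, 4.6 kb from Chrng on chromosome 1, was 0.469 FPKM in WT liver, 0.0475 in the heart labelled KO and listed at 0 in the other 8 libraries. Chrna1, the alpha subunit, reached 0.419 in WT liver and 0.113 at most elsewhere. Of the energy genes, Ckm, muscle creatine kinase, was 513 and 446 FPKM in the hearts, 0.862 and 0.263 in the livers, 0.11 in WT MEFs with GSK126 and 0 in the other 5 fibroblast libraries. Eno3, the muscle enolase, was 547 and 563 in the hearts, 10.2 and 11.7 in the livers, 14.6 and 9.88 in WT MEFs, 14.9 and 14.2 in labelled-KO MEFs, and 9.27 and 21.4 in the 2i-MEFs. Eno3 was thus at a similar level in livers and fibroblasts. Pygm, muscle glycogen phosphorylase, ranged from 0 to 1.27 in fibroblasts and from 275 to 309 in hearts.

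Liver held the largest difference between genotypes. Of the 35 members, 15 were at least 2-fold lower in the liver labelled Dnmt3a KO than in WT liver, and none was higher. Over all 52454 symbols 0.581% were lower and 0.351% higher, and since the members were selected on this contrast, nothing is read from that difference. The median log2 ratio of the members was -0.87, with 33 below 0 and 2 above, Eno3 at 0.18 and Mybpc2 at 0.02, and the median over all symbols was 0. A 2-fold fall in FPKM + 1 needs at least 1 FPKM in WT liver, which 21 members reached there, against 9 in the liver labelled KO. Of the 13279 genes of the table with at least 1 FPKM in either liver, 2.3% were lower. Smpx, at -1.0008, stood just inside the threshold and Pygm, at -0.97, just outside. In bulk tissue, fewer cells of a type and less RNA per cell cannot be told apart.

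By role, 2 of 4 myogenic factors were lower, 4 of 7 thick filament genes, 4 of 7 thin filament genes, 3 of 6 genes of the Z-disc group, 1 of 5 calcium and membrane genes, 1 of 3 receptor subunits and 0 of 3 energy genes. Acta1 fell by 4.18 on the log2 scale of FPKM + 1, from 28.4 to 0.624 FPKM, a 45.6-fold difference in FPKM. Myl1 fell by 3.87 (33.9-fold in FPKM) and Myh3 to a log2 ratio of -3.13 (40.1-fold). Next came Tnnt3 at -2.96, Tnnc2 at -2.81, Myog at -2.67 and Actn2 at -2.41, followed by Myh8 at -1.98, Atp2a1 at -1.96, Myod1 at -1.83 and Tnni2 at -1.67. Chrng at -1.35, Klhl41 at -1.09, Mylpf at -1.06 and Smpx completed the 15. Ordered by the size of the fall among all symbols, Acta1 was number 12 and Myl1 number 14, and 11 members were among the 100 largest falls. Since the members were selected on this contrast, high ranks follow from that choice and are a description only.

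For members with a single annotated transcript, reads could be recovered from FPKM. Myog had 214 reads in WT liver and 5 in the liver labelled KO, and after scaling for depth WT liver was 41.9-fold higher (exact 95% interval of the counts, 17.7 to 130.5). Klhl41 had 75 and 3 reads and was 24.6-fold higher (8.09 to 121.8), and Chrna1 had 46 and 4 reads and was 11.3-fold higher (4.13 to 43.3). Myod1 had 111 reads in WT liver and 0 in the other, where the lower end of the same interval is 29.0-fold. These intervals give the precision of the counts in 2 libraries, not the variation between embryos, and are no test of a contrast on which the members were selected. Myf6 had 4 reads against 0 and Myf5 2 against 0, so their values rest on a few reads.

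The members did not fall to 1 common degree. Mylpf differed 2.1-fold in FPKM, Tnnc1 1.86-fold and Tnnt1 1.54-fold, and these 3 kept 110, 20.7 and 19.1 FPKM in the liver labelled KO. By the lengths of their transcripts Tnnc1 had 388 to 526 reads in WT and 201 to 274 in labelled KO, and Tnnt1 15 to 660 and 5 to 419, so the levels of Tnnt1 and Mylpf are less certain than that of Tnnc1. Myh3 had 1511 to 1521 reads against 37, and Acta1 311 to 929 against 7 to 20. Acta1, Myl1, Myh3, Myog and Tnnt3 differed more than 30-fold and were all under 1 FPKM there. The Mylpf gene in the files spans chromosome 7 from 127208890 to 127214298 on mm10 and so begins upstream of the Mylpf start in RefSeq, and its FPKM is a sum over all transcripts in that span.

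**Figure D2:**
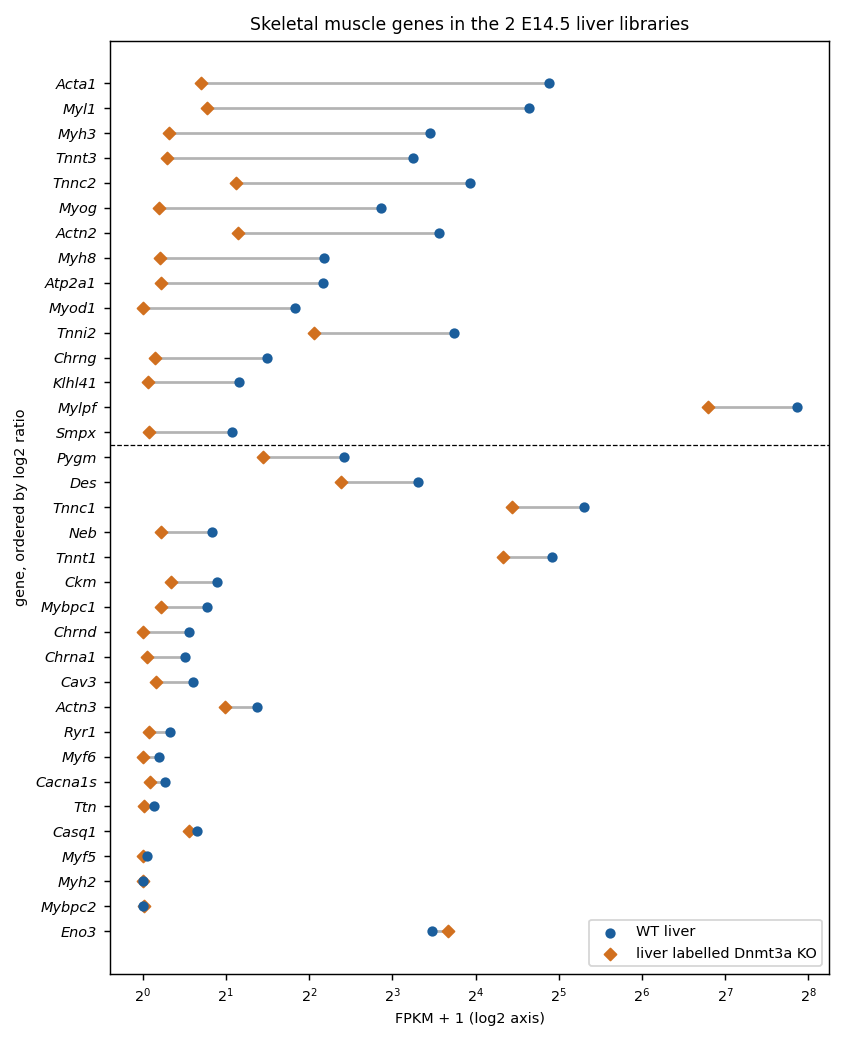
FPKM + 1 on a log2 axis for each of the 35 genes, with 1 WT liver library (circle) and 1 liver library labelled Dnmt3a KO (diamond), ordered by log2 ratio. The 15 genes above the dashed line lost at least 2-fold in labelled KO, from Acta1 at -4.18 to Smpx at -1.0008, and Eno3 at the bottom was higher by 0.18.

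The starts of the 5 members with the largest falls in liver that have a RefSeq promoter entry, and of Mylpf, which kept the highest level, are printed here. Each window runs 5′ to 3′ on the gene's strand, from 250 bases before the start to 50 after it on GRCm38.p6, the mm10 build. Capitals mark E-boxes (CANNTG, the form bound by the myogenic factors, which reads the same on both strands), the CArG box bound by SRF, and TATAAA on either strand.
Acta1 (chr8:123894726-123895025, minus strand): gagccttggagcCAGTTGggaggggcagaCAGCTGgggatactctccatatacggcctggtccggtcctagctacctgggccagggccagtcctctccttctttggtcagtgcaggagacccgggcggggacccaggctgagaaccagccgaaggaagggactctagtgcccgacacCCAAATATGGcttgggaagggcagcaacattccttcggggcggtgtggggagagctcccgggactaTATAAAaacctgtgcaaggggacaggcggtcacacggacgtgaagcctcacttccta
Myl1 (chr1:66945007-66945306, minus strand): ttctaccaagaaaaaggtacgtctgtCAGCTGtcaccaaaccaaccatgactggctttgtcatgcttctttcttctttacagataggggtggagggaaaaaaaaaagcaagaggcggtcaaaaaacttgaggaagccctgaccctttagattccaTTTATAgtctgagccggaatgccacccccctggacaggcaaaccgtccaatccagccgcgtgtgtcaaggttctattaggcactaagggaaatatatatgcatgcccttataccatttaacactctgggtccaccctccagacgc
Myh3 (chr11:67078050-67078349, plus strand): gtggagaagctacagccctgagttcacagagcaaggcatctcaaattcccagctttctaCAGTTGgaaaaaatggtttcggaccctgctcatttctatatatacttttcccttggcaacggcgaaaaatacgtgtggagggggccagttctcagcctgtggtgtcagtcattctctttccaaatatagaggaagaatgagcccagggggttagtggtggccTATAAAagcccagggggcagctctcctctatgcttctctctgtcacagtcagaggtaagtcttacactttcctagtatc
Tnnc2 (chr2:164779685-164779984, minus strand): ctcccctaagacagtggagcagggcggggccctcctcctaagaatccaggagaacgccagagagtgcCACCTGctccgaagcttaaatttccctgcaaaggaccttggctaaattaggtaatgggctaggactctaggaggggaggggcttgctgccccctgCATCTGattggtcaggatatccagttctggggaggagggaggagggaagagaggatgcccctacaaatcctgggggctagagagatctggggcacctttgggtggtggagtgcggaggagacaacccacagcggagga
Myog (chr1:134289754-134290053, plus strand): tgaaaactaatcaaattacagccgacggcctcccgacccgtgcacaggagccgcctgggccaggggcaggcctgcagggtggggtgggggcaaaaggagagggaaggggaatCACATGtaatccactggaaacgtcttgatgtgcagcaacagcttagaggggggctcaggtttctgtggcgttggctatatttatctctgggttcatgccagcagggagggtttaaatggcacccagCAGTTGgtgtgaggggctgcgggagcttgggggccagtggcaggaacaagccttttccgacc
Mylpf (chr7:127211358-127211657, plus strand): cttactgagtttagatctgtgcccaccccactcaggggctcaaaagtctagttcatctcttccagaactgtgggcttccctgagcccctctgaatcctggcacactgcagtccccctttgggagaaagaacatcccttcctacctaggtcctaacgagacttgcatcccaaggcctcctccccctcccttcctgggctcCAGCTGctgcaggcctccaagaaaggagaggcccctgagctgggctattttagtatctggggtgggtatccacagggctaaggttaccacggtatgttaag

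The Acta1 window held 2 E-boxes and a CArG box, and the Mylpf window a single E-box with the core CAGCTG. Of the 35 members, 28 had such an entry, and Chrnd, Tnnt3, Myf6, Myod1, Actn3, Neb and Tnni2 had none. An E-box of the CANNTG form was in 24 of the 28 windows (85.7%) and in 72.3% of all 32851 windows. The CAGCTG form, which is also counted among CANNTG, was in 15 of the 28 (53.6%) and in 5355 of all windows (16.3%), with 2 copies each at Chrng, Chrna1 and Pygm. Its holders were spread over the patterns, from Des, Ckm and Cav3, which were highest in heart, to Atp2a1 and Mylpf, which were highest in WT liver. TATAAA was in 7 of 28 windows (25%) against 13.6%, the MEF2 motif in 3 (10.7%) against 3.2%, namely Klhl41, Ttn and Myh8, and the CArG box in 1 (3.6%), Acta1, against 1.6%. These are matches of letters and do not show that a factor binds there.

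Other muscle genes were lower in the same liver library. Of 50 further genes of differentiated muscle, 12 were at least 2-fold lower in the liver labelled Dnmt3a KO and 0 higher, with a median log2 ratio of -0.46 and 46 below 0. Over all symbols 0.581% were lower and 0.351% higher. The further lists were chosen with earlier results of these data known, so they give no independent support for the members' difference. Myl4, an atrial and embryonic light chain, was 19.9 FPKM in WT liver and 2.12 in labelled KO, Tnni1, slow troponin I, was 24.8 and 4.09, and Mybph was 4.01 and 0.0477. Mymk, which encodes the protein that fuses myoblasts, was 2.16 FPKM in WT liver and listed at 0 in the other. Of 25 regulators that act upstream of the myogenic factors or beside them, 4 were lower and 0 higher, among them Cdh15 (1.82 to 0.0637 FPKM), Vgll2 (1.69 to 0.0536) and Mef2c (14.9 to 6.70).

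Markers of other cell types were read in the same pair. Of 16 cardiomyocyte markers, 3 were lower in the liver labelled KO, namely Actc1 (48.5 to 3.97 FPKM), Tnnt2 (9.12 to 1.42) and Myh7 (2.49 to 0.726), all of which embryonic skeletal muscle also uses. Another 2 were higher, Myl2 (0.493 to 4.91) and Tnni3 (0.525 to 2.27). The summed level of the 16 was 86.9 FPKM in WT and 39.4 in labelled KO, against 63559 in WT heart, and 4 and 3 of the 16 were at 0. Of the 11 that passed in neither direction, Gata4, which other cells of the liver also use, was 14.8 FPKM in both livers, and Myl7, the atrial light chain, was 9.12 in WT and 9.69 in labelled KO. The other 9 were under 1 FPKM in both, with Myh6 at 0.137 and 0.179, Nppa at 0 and 0.175, and Pln and Nppb at 0. The list thus held markers that were present and did not fall beside markers at or near 0. The 12 members highest in WT liver were by that choice above both hearts there, Myog at 6.31 FPKM against 0.448 and 0.801. Of 12 fibroblast and connective tissue markers, 3 were lower (Col3a1, 289 to 119 FPKM, Scx, 2.45 to 0.498, and Thy1, 1.65 to 0.177), all 12 were below 0, their sum was 545 and 294 FPKM and 1 was at 0 in the liver labelled KO. Their part in the members' difference was not tested. Of 8 hepatocyte, 10 smooth muscle, 6 mesothelial and 8 Schwann cell and neuron markers 0 passed 2-fold, and 1 of 8 erythroid markers, Hbb-bt, was higher. The hepatocyte markers still summed to 26788 FPKM in WT and 17414 in labelled KO, and the erythroid markers to 94460 and 128492. All 6 mesothelial markers were below 0. The part of these cells in the members' difference was not tested either.

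**Figure D3:**
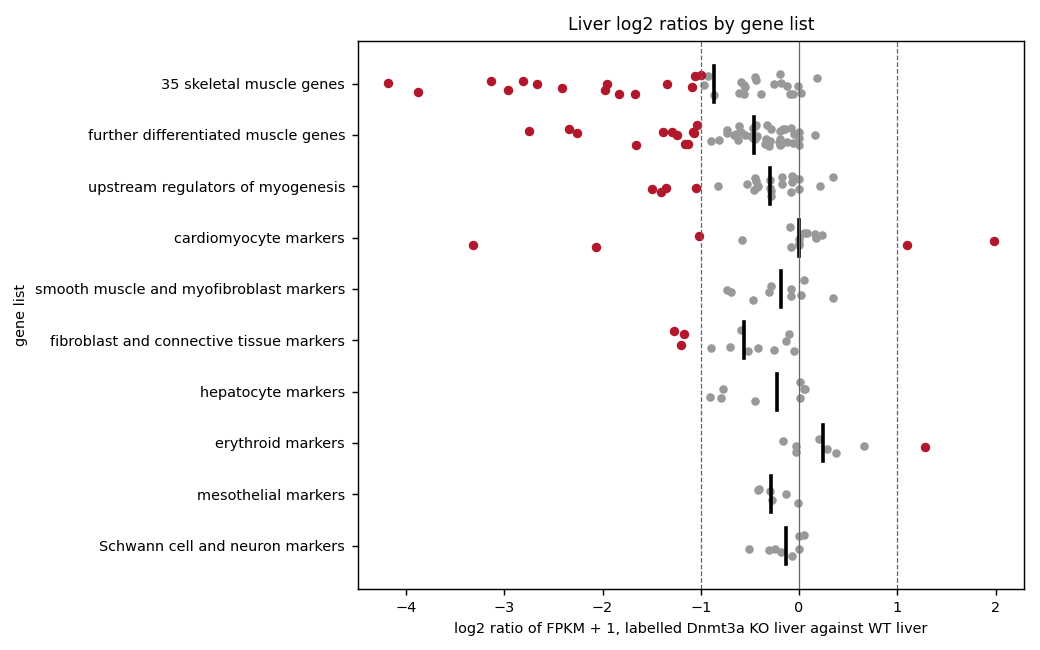
Log2 ratio of FPKM + 1 in the liver labelled Dnmt3a KO against WT liver (horizontal axis, 1 library each) for the 35 members and 9 further lists, 1 point per gene, red where the ratio passed 2-fold, with a black bar at each median. The members have a median of -0.87 and the further muscle genes of -0.46, while the cardiomyocyte markers have a median of 0 with genes on both sides.

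In heart the genotypes differed little in the members. Only Atp2a1 passed 2-fold, at 2.15 FPKM in the heart labelled Dnmt3a KO against 0.219 in WT, a log2 ratio of 1.37, and 0 were lower. Over all symbols 0.576% were higher and 0.488% lower in heart, the background for this 1 of 35. The members' median was 0.01. Next to the threshold stood Tnnc2 at 0.72 (1.17 against 0.317 FPKM) on the upper side and Myl1 at -0.87 (196 against 358) on the lower. Acta1, at 223 against 370 FPKM, had a ratio of -0.73 and Tnni2, at 186 against 119, one of 0.65, neither past 2-fold. The gene that Atp2a1 overlaps is Rabep2. Of 50 further muscle genes 0 were higher and 1 lower, and of 16 cardiomyocyte markers 0 in either direction. In the same pair 5 of 8 hepatocyte markers were lower, with Alb at 3.04 against 12.7 FPKM and Afp at 2.57 against 10.1. Trf lay on the other side, at 58.5 against 30.1 FPKM (log2 ratio 0.94), and the 8 summed to 69.4 against 80.7. All 8 erythroid markers were below 0, 1 of them past 2-fold. The part of these in the heart values was not tested.

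In MEFs with DMSO, 3 members were at least 2-fold higher in the library labelled Dnmt3a KO than in WT and 1 was lower. The background over all symbols was 1.11% higher and 0.528% lower. Tnnt3 was 16.2 FPKM against 3.996 (log2 ratio 1.78), Acta1 40.5 against 15.5 (1.33) and Mylpf 7.23 against 2.96 (1.06), while Tnni2 was 1.93 against 6.65 (-1.39). Tnnt3 and Tnni2, which lie close together on chromosome 7, thus differed in opposite directions. Depending on the transcript, the Mylpf value stands for 0 to 105 reads in the library labelled KO and 0 to 30 in WT. Only 11 of the 35 reached 1 FPKM in either library, and the median over all 35 was 0. Mesothelial markers moved in the same pair. Of these 6, 4 were higher in the library labelled KO and their sum was 147 against 75.7 FPKM, with Upk3b at 40.5 against 12.9 and Lrrn4 at 9.21 against 2.36. Smooth muscle markers were also higher in 2 of 10, with 9 of 10 above 0. Of 16 cardiomyocyte markers 2 were higher and 0 lower, Tnnt2 at 6.42 against 1.49 FPKM and Tnni3 at 2.002 against 0.361, and their sum was 17.95 against 8.46. Of 12 fibroblast markers 0 passed 2-fold and 10 were below 0. The part of these cells in the members' values was not tested.

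With GSK126, the same comparison gave 1 member higher and 1 lower, against 0.745% and 0.764% over all symbols. The counts depended on the setting, with 3 higher and 8 lower at a pseudocount of 0.1, and 2 higher and 5 lower at a threshold of 1.5-fold. Shares over all symbols were not computed at these 2 settings, so nothing is read from these counts. Tnnt1 was 3.85 FPKM in the library labelled Dnmt3a KO against 1.24 in WT (1.11), and Myl1 was 0.385 against 1.89 (-1.06). Cav3 stood just outside at -0.9998, at 0.148 against 1.30 FPKM. Tnnt3 again lay above 0, at 11.1 against 5.59 FPKM (0.87), without passing 2-fold. Acta1 was 21.7 against 14.7 FPKM. Of the 6 mesothelial markers 5 were higher here, with a sum of 360 against 86.7 FPKM. Fibroblast markers were lower in 2 of 12, with 10 below 0 and a sum of 6273 against 9243 FPKM, cardiomyocyte markers were higher in 2 of 16 and smooth muscle markers lower in 1 of 10. The part of these was not tested. The pairs with DMSO and with GSK126 do not share libraries, but the comparisons of GSK126 with DMSO that follow use the same 4 libraries.

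For the drug itself, in WT MEFs Mylpf passed 2-fold with GSK126, at 9.67 FPKM against 2.96 with DMSO (log2 ratio 1.43), and no other member did on the scale of FPKM + 1, beside 0.559% higher and 0.408% lower over all symbols. That scale compresses low genes, and with a pseudocount of 0.1 in place of 1 the count was 8 higher and 1 lower. The share over all symbols at that pseudocount was not computed, so nothing is read from this count. Depending on the transcript, the Mylpf value stands for 0 to 106 reads with GSK126 and 0 to 30 with DMSO. Below the threshold, Ttn was 0.204 FPKM with GSK126 against 0.0048 with DMSO, Actn2 0.688 against 0.0204 and Myl1 1.89 against 0.554. In the same pair 13 of 16 cardiomyocyte markers were above 0 and 1 passed 2-fold, Tnnt2 at 6.76 against 1.49 FPKM, with a sum of 17.2 against 8.46, and their part was not tested. In MEFs labelled Dnmt3a KO Mylpf was 5.69 with GSK126 and 7.23 with DMSO, and 0 members passed in either direction, beside 0.522% higher and 0.846% lower. With a pseudocount of 0.1 the count there was 4 higher and 2 lower, again without a share over all symbols. In this pair 4 of 6 mesothelial markers were higher with GSK126, with a sum of 360 against 147 FPKM, and all 10 smooth muscle markers were below 0, 1 of them past 2-fold. Of the fibroblast markers 2 of 12 were lower, and 1 of 16 cardiomyocyte markers was higher. The part of these was not tested. The nearest to the threshold there were Tnni2 at 0.92 (4.54 against 1.93 FPKM) and Acta1 at -0.87 (21.7 against 40.5). Myog was 0.0798 with GSK126 and 0.043 with DMSO in WT and 0.219 and 0.0301 in the library labelled KO, and Myod1 was likewise under 1 FPKM in all 4 libraries. Whether the response to GSK126 differed between the genotypes cannot be tested with 1 library each.

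In 2i-MEFs the Dnmt3a KO library was set against the Dnmt3b KO library. There 3 members were at least 2-fold higher and 5 lower in Dnmt3a KO, against 1.43% and 0.906% over all symbols. The higher members were Tnnt3 (8.42 against 2.41 FPKM, log2 ratio 1.47), Tnni2 (3.79 against 0.753, 1.45) and Casq1 (1.74 against 0.199, 1.19). Lower were Mylpf (0.72 against 5.22, -1.86), Acta1 (5.31 against 17.0, -1.51), Myl1 (0 against 1.49, -1.32), Des (16.7 against 39.2, -1.18) and Eno3 (9.27 against 21.4, -1.13). The 2 fast troponins of chromosome 7 thus lay on the same side here, whereas in MEFs with DMSO they lay on opposite sides. Several calls rest on few reads, depending on the transcript. Mylpf had 0 to 4 reads in Dnmt3a KO against 0 to 27 in Dnmt3b KO. Tnni2 had 6 to 29 against 1 to 5, and Casq1 5 to 31 against 1 to 3. All 4 myogenic factors were at 0 in Dnmt3a KO and summed to 0.421 FPKM in Dnmt3b KO. The median of the members was -0.03, and 11 of 35 reached 1 FPKM in either library, with a median of -0.76 among these 11. The counts depended on the setting, with 5 higher and 9 lower at a pseudocount of 0.1, where no share over all symbols was computed. Without the 11 members that cardiac muscle also uses, 3 were higher and 2 lower. Among 10 smooth muscle and myofibroblast markers 2 were lower in Dnmt3a KO and 0 higher, with a sum of 3176 against 4813 FPKM. Of 12 fibroblast and connective tissue markers 1 was higher, Tnmd at 31.6 against 4.07 FPKM. Of 6 mesothelial markers 1 was lower, Wt1 at 1.57 against 6.22. The part of these cells in the members' values was not tested. Without a WT 2i-MEF library it cannot be told which of the pair moved.

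**Figure D4:**
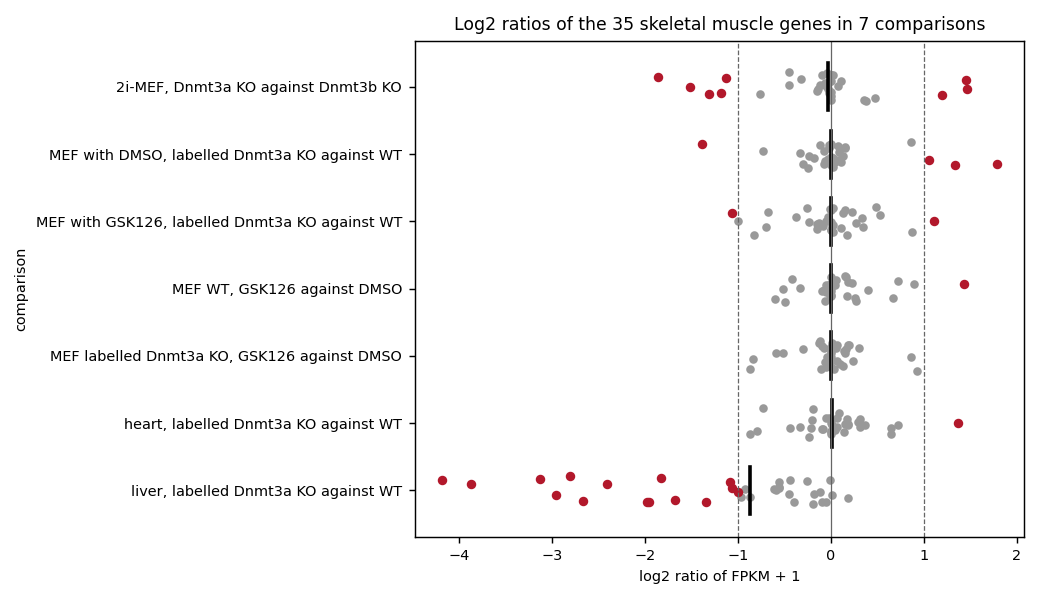
Log2 ratio of FPKM + 1 (horizontal axis) of the 35 genes, 1 point each, in the 7 comparisons on the vertical axis, red where the ratio passed 2-fold, with a black bar at the median and dashed lines at 2-fold. Liver stands apart with 15 red points on the lower side and a median of -0.87, while the medians of the other comparisons over all 35 lie between -0.03 and 0.01. Many members are near 0 FPKM in fibroblasts. In 2i-MEFs the median over the 11 members with at least 1 FPKM in either library was -0.76.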

How the data were processed

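RNA-seq libraries (10, 1 per condition) of fibroblasts, hearts and livers were used from the series. The authors deposited FPKM values per gene, made with TopHat2 and Cufflinks (2.2.1 in the submitters' processing notes) on mm10 with GENCODE M15. FPKM divides by length and mapped reads, so a few abundant genes, such as globins in liver, lower all others. Rows sharing a symbol were summed. Log2 ratios used FPKM + 1 (pseudocount 1), with a threshold of 2-fold, and alternatives are given at the end. Mapped reads were estimated from the steps of values under 10 reads, of which 96.3 to 97.9% lay within 0.1 of a whole read. This step and the ratios were tested on simulated data. The fold intervals are exact at 95%. Genes named with all values are the myogenic factors, the 2 highest members of each role and the 3 largest rises and falls per comparison past 2-fold. Members and lists were chosen with earlier results of these data known. Python 3.11.15, pandas 2.3.3 and scipy 1.17.1 were used. The 16 DNA methylation samples were not used here. The values of 1 upstream regulator are not reported here.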

Additional observations from a re-analysis of the deposited data

Results flagged for a closer look

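Between tissues or cultures, 4 members passed 2-fold in opposite directions in libraries labelled Dnmt3a KO against WT. These differences were not tested, since each rests on 1 library per condition. The share of all symbols that passed in opposite directions was not computed, so nothing is read from this count. Acta1 had a log2 ratio of 1.33 in MEFs with DMSO and of -4.18 in liver, Tnnt3 of 1.78 and -2.96, and Mylpf of 1.06 and -1.06. After centring, Mylpf stood at -0.99 in liver and no longer passed 2-fold, which leaves 3 such members. Atp2a1 had 1.37 in heart and -1.96 in liver. Dnmt3a differed between the same pairs as well, at 85.7 FPKM in labelled KO against 26.1 in WT for MEFs with DMSO, 125 against 55.0 for heart and 12.7 against 53.5 for liver. A link between Dnmt3a and the members was not tested. Past 2-fold in the same direction were Tnni2, at -1.39 in MEFs with DMSO and -1.67 in liver, and Myl1, at -1.06 in MEFs with GSK126 and -3.87 in liver.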

How the results depend on the processing

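No paired analysis was possible because the labels give every group a single replicate. A fit of genotype and drug together over the 4 MEF libraries, which would assume that the 2 add up, was not run. Of 119 recomputed counts and medians, 89 stayed within 1.5 times the count or within the interval of the median and 30 did not, and none of the 62 values of called members changed sign. Centring moved all ratios by at most 0.08, in liver upward, since the median subtracted there was -0.08. It took Mylpf (-0.99) and Smpx (-0.92) out of the liver calls and gave 2 members lower in MEFs with GSK126. With a pseudocount of 0.1 the lower members in liver numbered 25 and their median was -1.63. The same setting gave 5 higher and 9 lower in 2i-MEFs (median -0.17), 3 lower in MEFs with DMSO, 3 higher and 8 lower in MEFs with GSK126, 8 higher and 1 lower for GSK126 in WT MEFs, 4 and 2 in labelled-KO MEFs, and 3 and 1 in heart. A threshold of 1.5-fold gave 2 lower in MEFs with DMSO, 2 higher and 5 lower in MEFs with GSK126, 4 higher and 1 lower for GSK126 in WT MEFs, 2 and 3 in labelled-KO MEFs, and 4 and 3 in heart. Shares over all symbols were not computed at the pseudocount of 0.1 or at 1.5-fold. Nothing about the members is read from the counts at these settings. Over members with at least 1 FPKM in a pair, the median was -1.67 in liver, -0.76 in 2i-MEFs, 0.13 in MEFs with DMSO and 0.23 with GSK126. In liver 21 members reached 1 FPKM in WT and 9 in labelled KO. There the filter keeps members through the library where they are high, which by itself lowers the median, so nothing is read from that shift. Without the 11 members that cardiac muscle also uses, 2 were lower in 2i-MEFs and 0 higher in MEFs with GSK126. Beyond the setting itself, the cause was not tested. Depth limits the low members: in fibroblasts 24 to 27 of 35 were under 1 FPKM, where a few reads decide a ratio.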

Other observations

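The genes most like the members were sought among 12532 genes outside every list used here that reached 5 FPKM in at least 1 library. The measure was Pearson's r over the 10 libraries between a gene's log2(FPKM + 1) and the mean of the 35, a description with no p, since all points share libraries and both hearts dominate it. The first was Sln, sarcolipin, which regulates the muscle calcium pump (r = 0.995), at 6.75 and 4.93 FPKM in WT and labelled-KO heart, 1.06 in WT liver and 0 in the liver labelled Dnmt3a KO. Tmem163 (r = 0.992) was 29.3 and 20.2 in the hearts and 1.61 and 0.269 in the livers, and Itgb1bp2, the muscle protein melusin (r = 0.991), 48.8 and 36.9 in the hearts and 2.12 and 0.172 in the livers. Dhrs7c (r = 0.984) was 1.88 FPKM in WT liver and listed at 0 in the other liver and in all 6 fibroblast libraries. The 15 also held Pfkm, muscle phosphofructokinase (r = 0.982), which stayed between 21.3 and 25.9 FPKM in fibroblasts, and Hand1, a cardiac transcription factor (r = 0.982).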
